A study of Mus musculus with 4 samples.

Results

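The 39 genes described here act in DNA replication and in entry to S phase, the stage of the cell cycle in which the genome is copied. They were chosen by name from 31053 genes of the count matrices, and each of the 39 was found there under a single entry. By role they comprise 7 genes of the replicative helicase, 5 of origin loading, 10 of the replication fork and sliding clamp, 5 of nucleotide supply, 6 of chromatin and DNA methylation, and 6 of S-phase entry and control. The cells were T cells of strain BALB/c RAG2-/- TS1 Tg, labelled as CD4 T cells, sorted from transplanted mice with GVHD, the reaction of transferred T cells against their host. TS1 Tg is a transgenic T cell receptor, and RAG2-/- cells cannot rearrange receptors of their own. Both replicates carry this genotype, were taken 4 weeks after transplantation and pooled cells of 5 sources, namely spleen, colon, skin, and the epithelium and lamina propria of the small intestine. There was no untreated group and no recipient strain or animal age in the sources used here, and no label says that the replicates came from separate mice. The tissue of a cell was not analysed here, so cells were compared within each pool by the genes they carried.

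Before S phase, the Cdc6 and Cdt1 proteins load the ring-shaped Mcm2-7 helicase onto replication origins, and Cdc45 and the GINS complex (Gins1, Gins2) then switch it on. Polymerase alpha and primase (Pola1, Prim1) start each new strand, replication factor C (Rfc2, Rfc3, Rfc4) loads the Pcna clamp around it, and Fen1 and Lig1 trim and seal the fragments of the lagging strand. Transcription of many of these genes is driven by E2F factors, which the retinoblastoma protein holds back. Cyclin E (Ccne1, Ccne2) takes part in the release of these factors. Many mitotic genes are instead governed through CHR elements. Activated T cells divide quickly, while resting and stem-like T cells, marked by the transcription factor Tcf7, divide little.

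The expression libraries held 89427990 UMIs (unique molecular identifiers, 1 per captured RNA molecule) in replicate 1 and 108082997 in replicate 2. After the cell filters, 18972 and 15857 cells had a UMI of Cd3e, Cd3d or Cd3g, components of the T cell receptor complex, with medians of 2689 and 3702 UMIs. Cells were thinned at random to 1500 UMIs, which kept 15260 and 14839 cells (medians of 3138 and 3860 UMIs before thinning) and left out 3712 and 1018 shallower ones. At this depth Trbc2 was found in 98.2% and 98.1% of cells, Cd4 in 24.7% and 26.0%, Cd8a in 32.5% and 29.4% and Cd8b1 in 6.70% and 6.17%. Without thinning Cd4 was found in 42.5% and 54.2% of cells, and a cell without its UMI is not shown to lack CD4. A total of 578 barcodes (3.05% in replicate 1, 3.65% in replicate 2) were called as cells in both libraries, against 44.3 if barcodes were drawn at random. They had medians of 15709 UMIs in replicate 1 and 1725.5 in replicate 2. Counts of calls are therefore given with and without them. No doublet caller was run. Levels are given as CPM (the count of a gene scaled to a fixed total per library) without thinning, and classes of cells as CPM in thinned cells.

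The promoters of the members were searched for E2F letters. RefSeq start sites (GRCm38.p6, 250 bases before to 50 after the start) were matched for 34 of the 39 members. The E2F forms TTTGGCGC, TTTCCCGC, TTTCGCGC and TTTGCCGC were searched on both strands, and the first and the third can overlap each other's reverse complement. At least 1 of the 4 forms lay in the promoters of 15 of 34 members (44.1%), against 2.61% of all 27025 genes of the table and 2 of 40 genes (5%) of a list of G2/M genes, which act in mitosis. It was also in 13 of 43 other replication genes (30.2%) and 8 of 23 G1 and restriction point regulators (34.8%), so these letters are not particular to the members. The CHR letters TTTGAA, also searched on both strands, were in 11.8% of the members, 75% of the G2/M genes and 20.2% of all genes. The order of members and G2/M genes was thus the reverse of that for the E2F forms. The pattern CCAAT, searched the same way, was in 58.8% of members, 75% of G2/M genes and 41.1% of all genes. Members had 1.21 promoter entries per gene and all genes 1.22, so the number of windows searched per gene was similar, while the median GC content was 59.3% in members and 52.8% over all genes. The windows shown carry E2F letters and lie outside every gene of the GENCODE annotation, 5′ to 3′ along the gene's strand, with the matching letters in capitals.
Mcm5, mm10 chr8:75109330-75109389, plus strand: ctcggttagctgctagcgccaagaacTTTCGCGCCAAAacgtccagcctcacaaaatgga
Mcm6, mm10 chr1:128359723-128359782, minus strand: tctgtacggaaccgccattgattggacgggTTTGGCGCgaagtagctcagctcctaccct
Pola1, mm10 chrX:93632264-93632323, minus strand: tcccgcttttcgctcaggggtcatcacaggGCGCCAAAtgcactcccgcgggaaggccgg
Mcm5 and Mcm6 encode subunits of the helicase ring and Pola1 the catalytic subunit of polymerase alpha. The Mcm5 window holds 2 overlapping matches on opposite strands, and the other windows hold 1 each. The match in Mcm6 begins 47 bases before the start and that in Pola1 138 bases before it. A match of letters describes the sequence and does not show that a factor was bound there.

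Together the members made up 0.209% of UMIs in replicate 1 and 0.172% in replicate 2 at 1500 UMIs per cell. A UMI of any member was found in 82.3% (95% exact binomial interval 81.7 to 82.9) and 81.0% (80.3 to 81.6) of cells, where the intervals cover counting error only. Barcodes under 100 UMIs, which hold free RNA rather than cells, had member shares of 0.256% and 0.232%, against 0.282% and 0.240% in unthinned cells. Members thus made up similar shares of free RNA and of cells, but how many free UMIs a cell holds was not measured. A single member UMI is therefore not read as expression. As a comparison, 49 and 80 CD3-positive cells with at least 1% of UMIs from myeloid and MHC class II markers (medians of 9334 and 10150.5 UMIs before thinning) had a Pclaf UMI in 18.4% and 16.3% of cases, against 17.5% and 12.1% of all cells. In 96 and 85 cells with at least 1% neutrophil markers (medians of 3260 and 10426 UMIs) it was 33.3% and 24.7%. Pclaf does not stand for all members here. In the myeloid-marker cells Dut was found in 14.3% and 15.0% of cases, against 24.9% and 21.4% of all cells. Slbp was found in 14.3% and 21.3% of them, against 27.6% and 25.2% of all cells. The members together made up 0.135% and 0.148% of UMIs in myeloid-marker cells and 0.240% and 0.166% in neutrophil-marker cells. A cell with at least 8 member UMIs of 1500 is called member-rich below, the smallest whole number that at most 10% of pooled cells reach. Member-rich cells were 10.7% of replicate 1 and 7.22% of replicate 2, with up to 32 and 33 member UMIs in a cell. Just inside the threshold, 277 and 138 cells held exactly 8 member UMIs, and just outside it 363 and 161 held 7.

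Levels without thinning differed widely among members. Within the fork group, Pclaf, a partner of the Pcna clamp, stood at 356 CPM in replicate 1 and 269 CPM in replicate 2, and Pcna itself at 61.6 and 44.9 CPM. In nucleotide supply, Dut, which removes dUTP, was at 287 and 250 CPM, and Rrm2, the regulated subunit of ribonucleotide reductase, at 265 and 192 CPM. Slbp, which binds histone mRNA, was at 261 and 239 CPM. At the low end, Mcm10 was at 6.35 and 5.68 CPM, Gins1 at 6.95 and 6.43 CPM, and Ccne2 at 11.0 and 8.88 CPM. Each of the 39 members was lower in replicate 2 than in replicate 1, by ratios of 0.72 for Rrm2 to 0.96 for Rpa2, a gap between single libraries that has no replicate check. In free RNA, Pclaf was at 296 and 250 CPM, close to its level in cells, while Pcna was at 38.7 and 30.6 CPM and Ccne2 at 5.53 and 5.03 CPM, further below theirs.

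**Figure D1:**
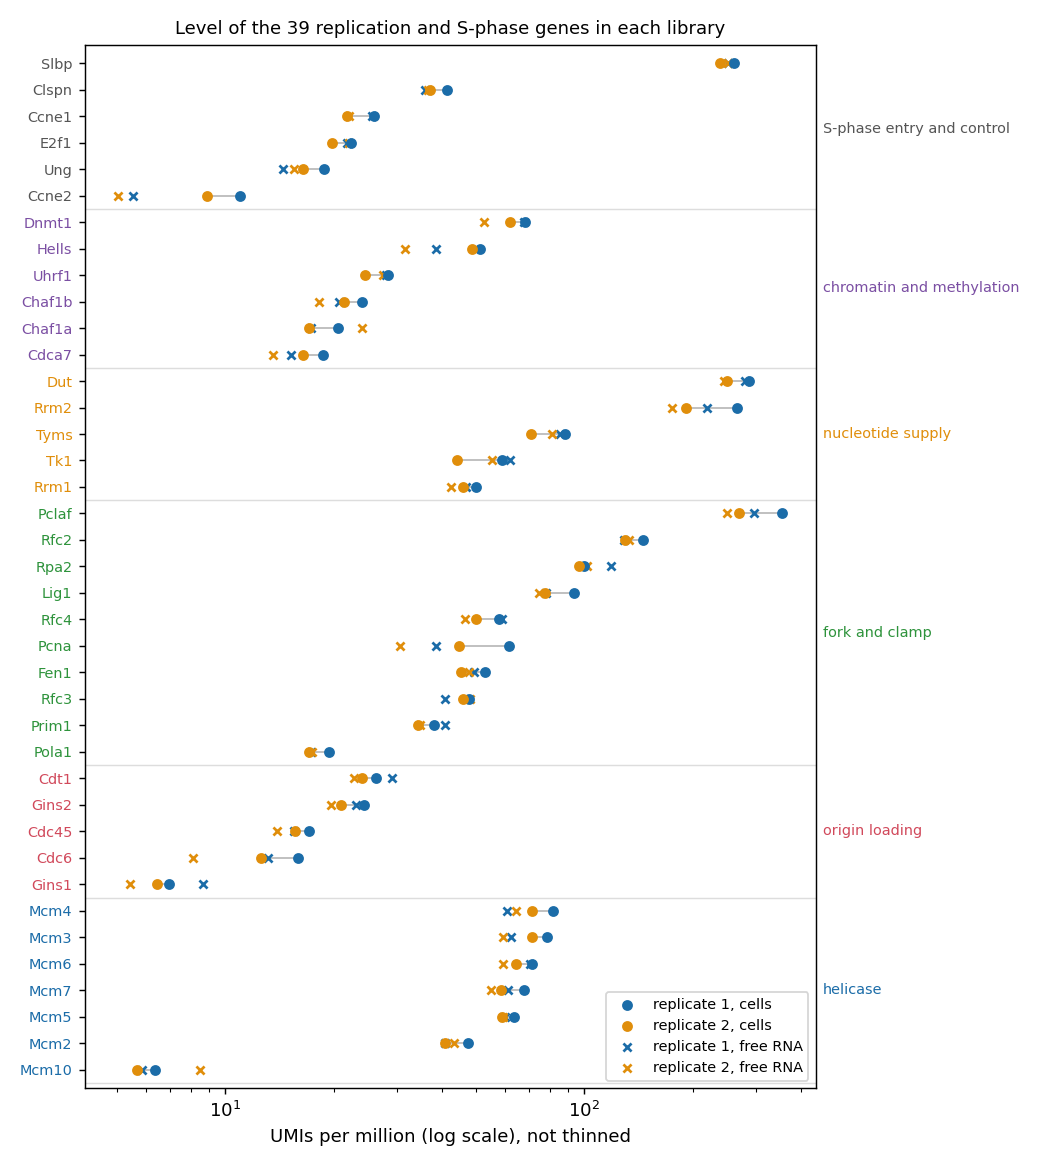
Level of each of the 39 members in CPM without thinning (log axis), by role, with filled circles for the cells of each library and crosses for barcodes under 100 UMIs. Pclaf is the highest member at 356 and 269 CPM, Mcm10 the lowest at 6.35 and 5.68 CPM, and each circle of replicate 2 lies to the left of that of replicate 1.

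Members differed in how far they travelled with the rest of the set. For each member, the mean number of UMIs of the other 38 was compared between cells with and without its own UMI, as a description. Cdc6, the origin loader, had the largest ratio at 3.55 as the mean of the libraries (3.23 in replicate 1 and 3.87 in replicate 2), with 9.77 other member UMIs in the 224 cells with Cdc6 against 3.03 in cells without it in replicate 1. Mcm10, which joins the helicase at activation, had a ratio of 3.38, Rrm2 3.33, Pclaf 3.24 and Tk1, thymidine kinase, 3.24. The lowest ratios belonged to Rpa2, a subunit of the single-strand DNA binding complex, at 1.46, Rfc2 at 1.53 and Slbp at 1.70. A UMI of these last 3 genes, which were each found in over 12% of cells in either library, therefore said less about the other members than a UMI of Cdc6 or Rrm2.

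The same comparison with 47 G2/M genes set the members apart in another way. Cells with Pclaf held 4.85 times the G2/M UMIs of cells without it, and for Rrm2 the ratio was 4.30. Cdc6 had a ratio of 2.11 and Ccne2 one of 2.42, under those of Pclaf and Rrm2, while their ratios for the other members were 3.55 and 3.17. Ung, the uracil DNA glycosylase that repairs uracil in DNA, had a member ratio of 2.40 and a G2/M ratio of 1.11, the lowest of the 39. Cdca7, a chromatin factor, stood at 2.54 and 1.48 and Mcm6 at 2.18 and 1.41. The points share libraries and cells, and they are not independent of each other.

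**Figure D2:**
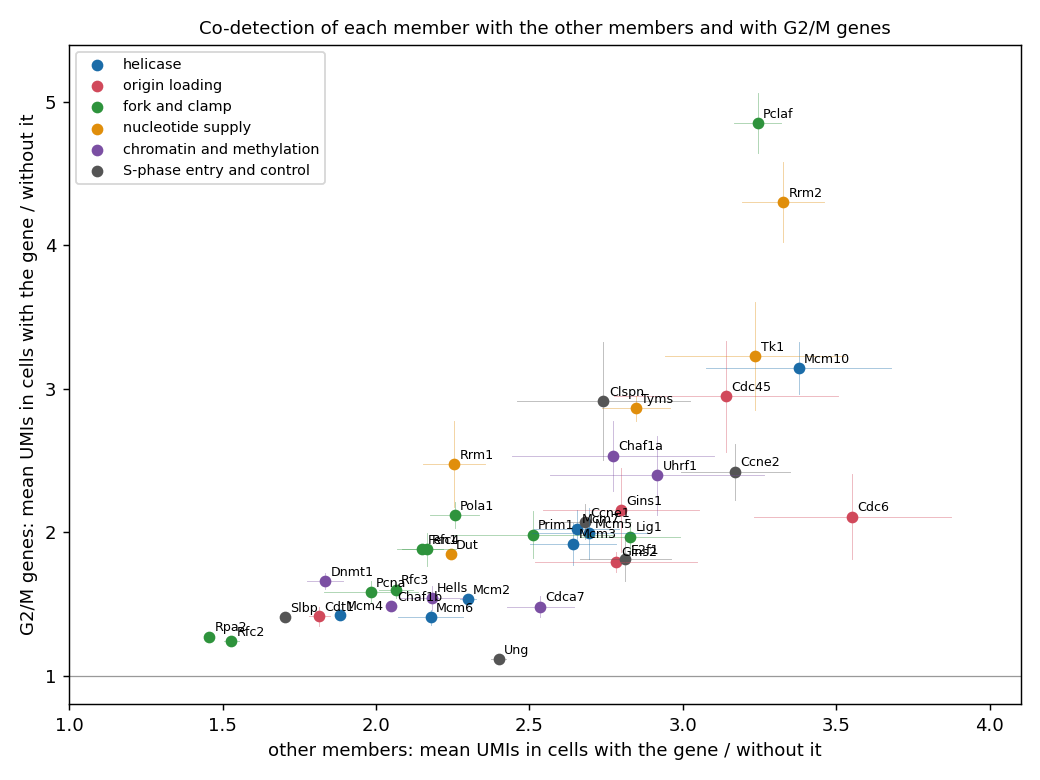
For each member, the ratio of mean UMIs of the other 38 members (horizontal axis) and of 47 G2/M genes (vertical axis) between cells with and without a UMI of that member, at 1500 UMIs; points are means of the libraries and thin lines join their values. Pclaf and Rrm2 lie highest, Cdc6 farthest right, and Ung near a G2/M ratio of 1.

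Cells with more member UMIs also held more of other cycle genes. Of cells with no member UMI, 21.5% in replicate 1 and 24.8% in replicate 2 had at least 2 G2/M UMIs, and of cells with 10 or more member UMIs 86.9% and 85.3% did. Replication-dependent histone genes, whose products package new DNA, made up 0.0153% of UMIs in the lowest and 0.103% in the highest of these bins in replicate 1, and 0.0194% and 0.167% in replicate 2. Among member-rich cells 64.2% (61.9 to 66.6) and 63.4% (60.5 to 66.3) held at least 4 G2/M UMIs, against 11.2% and 5.91% of the remaining cells. So most cells rich in replication genes carried mitotic genes as well, and about 1 in 3 held fewer than 4 such UMIs. Cells of the top bin were deeper before thinning, with medians of 7362.5 and 9536.5 UMIs against 3277 and 3755 in cells with no member UMI. The member share did not rise evenly with depth. It was 0.221% and 0.178% in cells of 1500 to 2000 UMIs, 0.140% and 0.117% in cells of 3000 to 5000, and 0.529% and 0.416% in cells of 10000 or more. The part of depth, cell size and doublets in these values was not tested.

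**Figure D3:**
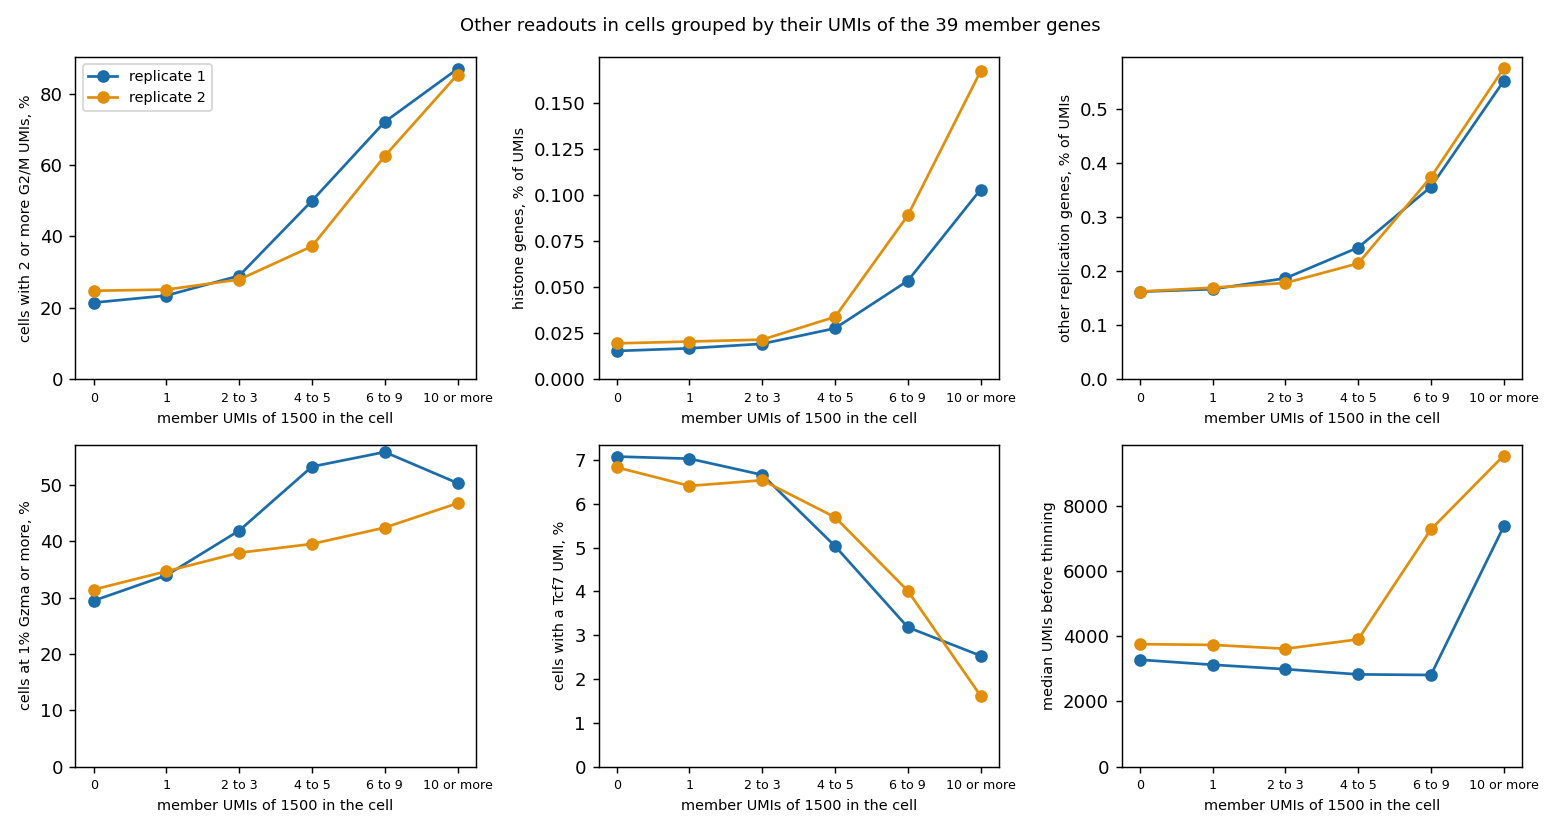
Readouts in cells grouped by the number of member UMIs among 1500 (horizontal axis), with 1 line per library: cells with G2/M UMIs, histone and other replication gene shares, cells with at least 1% Gzma, cells with a Tcf7 UMI, and the median UMIs before thinning. From 0 to 10 or more member UMIs, cells with a Tcf7 UMI go from 7.08% to 2.53% in replicate 1 and from 6.83% to 1.62% in replicate 2.

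The cells were next split by Gzma, the gene of the cytotoxic protease granzyme A. Cells with at least 1% of their UMIs from Gzma numbered 6228 and 5432, and the rest 9032 and 9407. Without thinning Gzma stood at 12296 and 13671 CPM in free RNA and 17992 and 17149 CPM in cells. The share in free RNA was thus itself above the 1% threshold, and Gzma UMIs of a cell can come in part from free RNA. How far this moved cells between the classes was not tested. Members made up 0.258% and 0.200% of UMIs in Gzma-high cells and 0.182% and 0.160% in the rest. Member-rich cells were 13.8% (13.0 to 14.7) and 9.22% (8.47 to 10.0) of Gzma-high cells, and 8.61% (8.04 to 9.21) and 6.07% (5.60 to 6.57) of the rest. The class with more Gzma was higher in both libraries, but Gzma-high cells of replicate 2 were close to Gzma-low cells of replicate 1. In edgeR's quasi-likelihood test on sums per library and class (Benjamini-Hochberg adjusted p under 0.05 over all genes), 24 of the 39 members rose and 0 fell, where the background of all 11389 genes tested was 21.5% higher and 24% lower. The median log2 fold change was 0.33 over the members and -0.00 over all genes. Without the shared barcodes 24 members were higher and 1 lower. For this and the other alternative cell sets below, the share of all genes called is not given beside the members called. DESeq2 on the same sums called 6 members higher and 0 lower, beside 14.5% of all genes in either direction. The test sees 4 sums from 2 pooled libraries, with 1 residual degree of freedom. The level of each library is taken out in the fit. Its p-values thus rest on how far the class difference varied between these libraries, with dispersion information shared over genes. They do not measure the spread between mice.

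In the order of their roles, 5 of 7 helicase genes rose with Gzma. Mcm5 stood at 56.4 and 48.8 CPM in Gzma-high cells of replicates 1 and 2 and at 39.5 and 36.4 CPM in the rest, a log2 fold change of 0.45 (SE 0.08, edgeR adjusted p = 1.08e-05). Both Gzma-high values lay above both Gzma-low values. The classes did not overlap, in either direction, for 22 of 39 members and for 7702 of all 11389 genes. Of the origin loading genes 4 of 5 rose, with Cdc45 at 15.4 and 10.9 CPM against 8.13 and 8.16 CPM (log2 0.67, SE 0.16) and Gins1 at 0.70 (SE 0.25). Cdt1, the exception, was at 22.5 and 15.4 CPM against 24.1 and 21.1 CPM, with an edgeR adjusted p of 0.0537. In nucleotide supply Rrm2 rose from 133 and 101 CPM to 222 and 125 CPM (log2 0.52, SE 0.07), and Tyms, thymidylate synthase, and Dut rose by log2 0.25 and 0.26. Rrm1, the other subunit of ribonucleotide reductase, did not pass, at 42.0 and 35.9 CPM against 37.7 and 33.6 CPM.

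At the fork, 6 of 10 genes rose. Lig1 went from 54.4 and 45.9 CPM to 88.6 and 72.0 CPM (log2 0.66, SE 0.07, edgeR adjusted p = 6.95e-11), with no overlap between classes. Pcna did not follow, at 54.4 and 34.5 CPM in Gzma-high cells and 48.0 and 39.3 CPM in the rest, a log2 difference of 0.00 (SE 0.09), with opposite order in the 2 libraries. Among chromatin genes 4 of 6 rose, with Chaf1a, of the complex that places histones on new DNA, at log2 0.59 (SE 0.14) and Uhrf1, which guides Dnmt1 to newly copied DNA, at 0.52 (SE 0.11). Among the genes of S-phase entry and control, Clspn, an adaptor of the replication checkpoint, rose from 21.7 and 20.5 CPM to 40.9 and 36.0 CPM (log2 0.85, SE 0.10), and Slbp rose by 0.41 (SE 0.05). The remaining 4 of that group, Ccne1, Ccne2, E2f1 and Ung, did not pass. Ccne1 was at 22.1 and 15.4 CPM against 16.3 and 14.7 CPM, and Ccne2 at 8.89 and 3.83 CPM against 7.47 and 6.39 CPM.

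Rfc2 had the largest change of any member with Gzma. It was at 191 and 184 CPM in Gzma-high cells and 86.3 and 84.3 CPM in the rest, a log2 fold change of 1.12 (SE 0.06, edgeR adjusted p = 6.99e-21), although it was among the members least tied to the others. Its gene, on mm10 chromosome 5 from 134581366 to 134601805 on the plus strand, shares 1784 bases with Lat2, a signalling adaptor gene on the minus strand from 134600022 to 134615025. Lat2 changed with Gzma by log2 2.83 (SE 0.07), from 18.7 and 17.4 CPM to 136 and 123 CPM. Over the other splits Lat2 and Rfc2 had the same sign, with log2 values of 1.58 and 0.63 for Itgae, -1.59 and -0.48 for Tcf7, -1.34 and -0.48 for Eomes, -1.44 and -0.41 for Il10, -0.03 and -0.20 for Il13 and -0.81 and -0.34 for Csf2. The sources used here do not say whether strand was used in counting, and whether Lat2 transcripts enter the Rfc2 count was not tested. Without Rfc2, 23 of 38 members rose with Gzma. Rfc3 and Rfc4, of the same clamp loader, had log2 values of 0.14 (SE 0.09, not passing) and 0.42 (SE 0.08).

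Gene lists around the members moved in part with them. Of 58 other replication genes 23 rose and 3 fell with Gzma, with a median log2 value of 0.24, and Rpa1 and Blm had the largest rises at 1.24 and 1.29. Of 47 G2/M genes 30 rose and 2 fell (median 0.40). Of 28 tested histone genes 4 rose and 10 fell (median -0.45), while their summed share was higher with Gzma in both libraries, at 0.0302% and 0.0353% of UMIs against 0.0271% and 0.0318%. Of 30 G1 and restriction point regulators 6 rose and 6 fell, with Ccnd2, cyclin D2, up by 1.04 (SE 0.05), and Cdkn1a, the p21 inhibitor of cyclin-dependent kinases, down from 63.7 and 59.3 CPM to 20.4 and 16.0 CPM (log2 -1.77, SE 0.09). The 9 neutrophil markers fell together, and their summed share was 0.0696% and 0.0660% of UMIs in Gzma-high cells and 0.226% and 0.378% in the rest. With cells holding at least 1% of markers of another cell type left out, the same 24 members rose. Median depth before thinning was 3343 and 4593 UMIs in Gzma-high cells and 3030 and 3468 in the rest. Within cells of 2000 to 4000 UMIs 7 members rose and 1 fell, with no all-gene share given beside this count.

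The member share did not follow Gzma evenly. In replicate 1 it was 0.207% in cells with no Gzma UMI, 0.161% in cells under 0.5%, 0.272% at 0.5 to 1%, 0.280% at 1 to 2%, 0.284% at 2 to 4% and 0.221% at 4% or more. Replicate 2 gave 0.188%, 0.152%, 0.163%, 0.173%, 0.211% and 0.199% for these bins. The lowest bin was that under 0.5% in both libraries. Between 0.5 and 2% the libraries differed, with replicate 1 near its highest value, also below the 1% threshold, and replicate 2 near its lowest. Depth differed there too. For the bins of 0.5 to 1% and 1 to 2%, median UMIs before thinning were 2114 and 2111 in replicate 1. In replicate 2 they were 4251 and 4609. The part of depth in this difference was not tested.

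Cells with a UMI of Tcf7, the factor of stem-like and progenitor T cells, were 922 and 906 cells, 6.04% and 6.11% of the total. Members made up 0.149% and 0.128% of their UMIs and 0.213% and 0.175% in the remaining cells, and the classes did not overlap. Member-rich cells were 4.77% (3.49 to 6.35) and 2.54% (1.62 to 3.78) of Tcf7 cells against 11.1% (10.6 to 11.7) and 7.53% (7.10 to 7.98). In edgeR 18 of 39 members fell and 0 rose, where 4.32% of 11267 genes were lower and 3.91% higher. The median log2 value was -0.49 over the members, each of the 39 was below 0, and over all genes the median was -0.00. Without the shared barcodes 15 members fell, and DESeq2 called 4 (2.9% of all genes). Within cells of 2000 to 4000 UMIs 3 fell, with no all-gene share given beside this count. Tcf7 stood at 35.9 and 41.0 CPM in free RNA and 39.1 and 37.4 CPM in cells, so a single Tcf7 UMI can come from free RNA, and the same holds for Eomes, Il10 and Il13, whose levels in free RNA were also close to those in cells. Csf2 was at 121 and 111 CPM in free RNA against 150 and 134 CPM in cells, and Itgae at 188 and 206 CPM against 252 and 265 CPM, so cells chosen by 1 UMI of these genes can also include some that hold only free RNA. The 2 classes differed also in neutrophil markers, of which 8 of 9 fell (0.0133% and 0.0453% of UMIs against 0.171% and 0.278%), and with marker-holding cells left out 18 members fell.

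**Figure D4:**
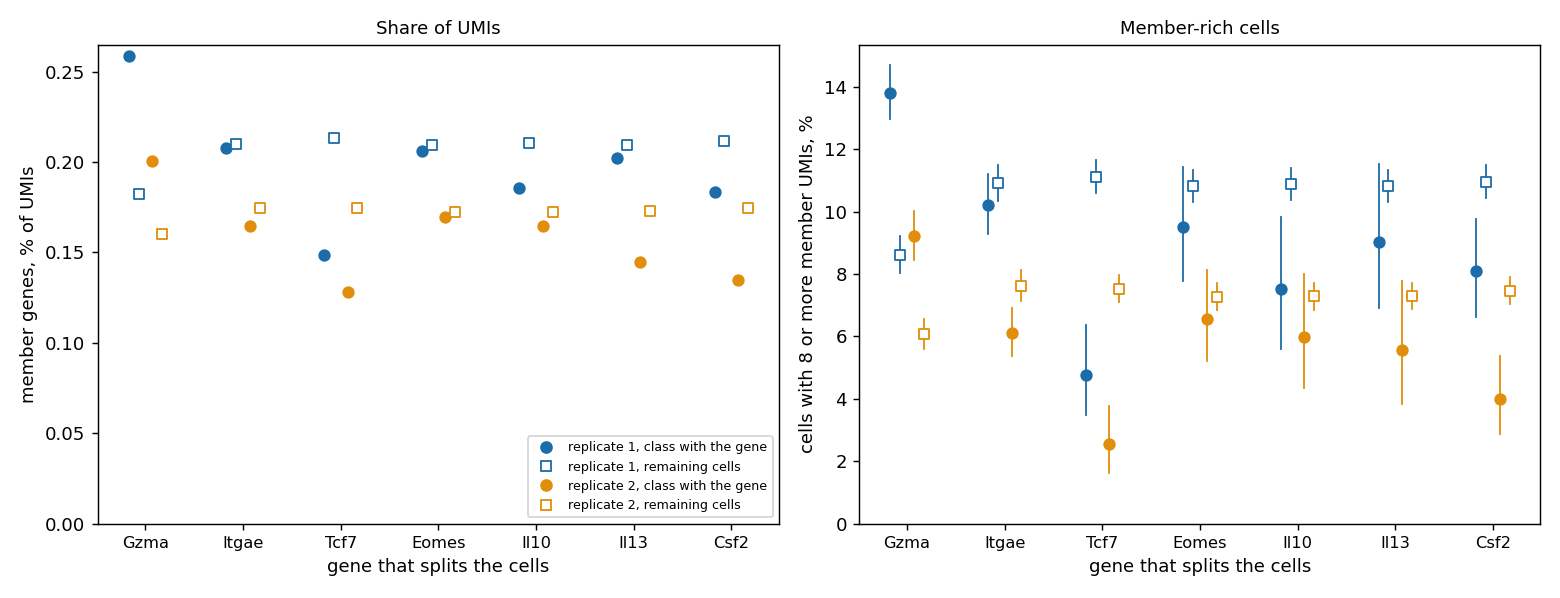
Member share of UMIs (left, axis from 0) and share of cells with at least 8 member UMIs (right, bars are 95% exact binomial intervals for counting error) in 7 splits, with filled circles for the class with the gene, open squares for the remaining cells and a colour for each library. The Gzma class lies above the remaining cells of the same library and the other 6 classes below them, by the most for Tcf7.

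All 5 nucleotide supply genes fell in cells with Tcf7. Rrm1 went from 39.6 and 34.9 CPM to 26.0 and 18.4 CPM (log2 -0.76, SE 0.17), Tk1 from 40.7 and 29.1 CPM to 32.6 and 15.5 CPM (-0.55, SE 0.18), and Dut from 218 and 182 CPM to 151 and 147 CPM (-0.44, SE 0.08). Among the genes that switch on the helicase, Cdc45 fell from 11.5 and 9.28 CPM to 1.45 and 4.42 CPM (log2 -1.84, SE 0.44, edgeR adjusted p = 0.00455), which rests on 2 and 6 UMIs in the Tcf7 cells. Gins2 fell from 17.6 and 13.7 CPM to 5.79 and 7.36 CPM (-1.26, SE 0.30), on 8 and 10 UMIs. Of the helicase ring Mcm3, Mcm4, Mcm6 and Mcm7 fell, and Mcm7 was at 29.7 and 32.4 CPM in cells with Tcf7 against 50.9 and 41.8 CPM (-0.59, SE 0.15). Mcm2 and Mcm5 lay below 0 in both libraries without passing, at -0.34 and -0.32.

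At the fork Pclaf fell by 0.90 on the log2 scale (SE 0.08), from 219 and 146 CPM to 126 and 71.4 CPM, and Lig1, Prim1 and Rfc2 fell too. Pcna did not pass here either, at 47.0 and 30.2 CPM with Tcf7 and 49.9 and 37.5 CPM without. Of the 6 chromatin and methylation genes, 0 passed in edgeR and 0 in DESeq2, although each was below 0 and 5 had an unadjusted p under 0.05 in edgeR. Clspn fell by 1.07 (SE 0.21), Ccne2 by 1.67 (SE 0.51, on 2 and 4 UMIs) and Slbp by 0.28 (SE 0.07). Beside the members, 17 of 47 G2/M genes fell and 0 rose, and 7 of 57 other replication genes fell, with Asf1b, a histone chaperone, down by 0.95 (SE 0.15). Orc5, a subunit of the origin recognition complex, rose by 0.88 (SE 0.28). Of 26 histone genes 5 fell, and of the G1 regulators Ccnd2 fell by 0.56 (SE 0.07).

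Tcf7 cells were less often Gzma-high, at 15.1% and 10.5% against 42.5% and 38.3%. With the Gzma class as a further term in the fit, 8 members still fell with Tcf7, where 2.11% of 10515 genes were lower. They were Pclaf, Rrm2, Dut, Lig1, Rrm1, Gins2, Clspn and Cdc45, and Pclaf fell by 0.74 (SE 0.11). In Gzma-low cells the member-rich share was 3.32% (2.18 to 4.83) and 2.22% (1.32 to 3.49) with Tcf7 and 9.12% and 6.43% without. In Gzma-high cells it was 12.9% (7.86 to 19.7) and 5.26% (1.73 to 11.9) with Tcf7 and 13.8% and 9.29% without, over only 139 and 95 cells with Tcf7. The difference between these contrasts was tested as an interaction, and 0 of 39 members passed in edgeR (6 had an unadjusted p under 0.05, the lowest adjusted p was 0.0942, and DESeq2 called 0 of the 6 members to which it gave an adjusted p), where 0.323% of all genes passed in edgeR.

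Itgae encodes the integrin chain CD103, which holds T cells in epithelia, and a UMI of it was found in 3854 and 3818 cells. The member share was 0.208% and 0.165% with Itgae and 0.210% and 0.175% without, nearly the same in replicate 1. In edgeR 3 members rose and 9 fell, where 13.3% of 11259 genes were higher and 15.4% lower. Without the shared barcodes 4 rose and 9 fell, and DESeq2 called 2 (7.63% of all genes). Ung fell by 0.50 (SE 0.15), from 15.1 and 12.9 CPM to 10.9 and 8.74 CPM, Tk1 by 0.33 (SE 0.09) and Pclaf by 0.29 (SE 0.05). The 3 that rose were Rfc2, beside Lat2 as described, Clspn by 0.34 (SE 0.10) and Dnmt1, the maintenance DNA methyltransferase, by 0.19 (SE 0.07). Most of these calls did not recur in another thinning. A second random draw called 5 members, of which 3 were among the 12 of the main fit. Of those 12, 11 kept their direction in it. Thinned to 1000 UMIs, 3 members were called, 2 of them among the 12, and all 12 kept their direction. The direction for the set changed without thinning, where 30 members were higher and 1 lower. The share of all genes called without thinning is not given here, so this count has no background beside it. Without thinning a UMI of Itgae was found in 36.8% and 41.6% of cells, against 25.3% and 25.7% at 1500 UMIs.

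Cells with Itgae were Gzma-high in 76.8% and 78.9% of cases, against 28.7% and 22.0% of cells without. Within a Gzma class the members were lower with Itgae. In Gzma-high cells the member-rich share was 11.4% (10.2 to 12.5) and 6.81% (5.93 to 7.76) with Itgae and 16.1% (14.8 to 17.4) and 12.2% (11.0 to 13.6) without. In Gzma-low cells it was 6.49% and 3.47% with Itgae and 8.85% and 6.31% without. With Gzma class as a further term, 5 members fell and 0 rose, where 0.681% of 10430 genes were lower, and these were Mcm3, Mcm7, Pclaf, Dut and Rrm2. Pclaf fell by 0.60 (SE 0.09) and Rrm2 by 0.57 (SE 0.09) in that fit. The interaction of Gzma and Itgae passed for 0 members in edgeR (1 had an unadjusted p under 0.05, the lowest adjusted p was 0.101, and DESeq2 called 0), where 4% of all genes passed in edgeR.

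Csf2 encodes the cytokine GM-CSF, and cells with its UMI numbered 1199 and 1004. Members made up 0.183% and 0.135% of their UMIs against 0.212% and 0.175% in the rest, and member-rich cells were 8.09% (6.61 to 9.79) and 3.98% (2.86 to 5.39) against 11.0% and 7.46%. In edgeR 9 members fell and 0 rose, where 5.98% of 11347 genes were lower and 9.26% higher, with a median log2 value of -0.24 against -0.01 over all genes. Without the shared barcodes 6 fell, and DESeq2 called 1 (5.64% of all genes). Pola1 fell by 0.77 (SE 0.27), from 15.7 and 13.2 CPM to 8.36 and 7.98 CPM, Lig1 by 0.49 (SE 0.13), Dnmt1 by 0.44 (SE 0.14) and Pclaf by 0.42 (SE 0.08). Cdkn1a was higher in cells with Csf2, at 96.4 and 107 CPM against 41.4 and 38.5 CPM (log2 1.40, SE 0.11). Cells with Csf2 were Gzma-high in 28.2% and 17.5% of cases against 41.9% and 38.0%, and with the Gzma class in the fit 0 members passed in edgeR (8 had an unadjusted p under 0.05), where 2.4% of all genes were lower. Within cells of 2000 to 4000 UMIs 1 member rose and 0 fell, with no all-gene share given beside this count.

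Few members passed in the splits by Eomes, Il10 and Il13, while the share of member-rich cells was lower with each of these genes in both libraries. It was 9.50% (7.79 to 11.4) and 6.57% (5.22 to 8.14) with Eomes against 10.8% and 7.28%. With Il10 it was 7.51% (5.59 to 9.84) and 5.98% against 10.9% and 7.29%. With Il13 it was 9.03% (6.91 to 11.5) and 5.57% (3.84 to 7.78) against 10.8% and 7.29%. The counting intervals of the classes overlapped in each of these but Il10 in replicate 1. The member share was 0.206% and 0.170% of UMIs with Eomes, 0.186% and 0.165% with Il10 and 0.202% and 0.145% with Il13, below the remaining cells in each case. Eomes, a transcription factor of effector and memory T cells, was found in 1053 and 1172 cells, and Rpa2 rose by 0.35 (SE 0.08) and Rfc2 fell, where 4.51% of 11270 genes were higher and 5.4% lower. Rpa2 was at 120 and 106 CPM with Eomes and 90.0 and 87.3 CPM without. In the 639 and 702 cells with Il10, the gene of an inhibitory cytokine, Mcm6 rose by 0.61 (SE 0.13) and Mcm4 by 0.39 (SE 0.12), and Rfc2 fell, where 3.62% of 11426 genes were higher and 2.44% lower. Mcm6 was at 74.1 and 76.1 CPM with Il10 and 57.2 and 46.4 CPM without, and the classes did not overlap. In this split the classes did not overlap, in either direction, for 7 of 39 members and for 5637 of all 11426 genes. The other helicase genes did not pass in this split, and their log2 values ranged from -0.34 to 0.28. In the 631 and 574 cells with Il13, a type 2 cytokine gene, 0 members passed in edgeR (9 had an unadjusted p under 0.05, and DESeq2 called 0), where 5.74% of 11487 genes were higher and 4.09% lower. The counts in the Eomes and Il10 splits were the same without the shared barcodes, and in the Il13 split 0 members passed. DESeq2 called 0 members in each of the 3 splits, where it called 2.56%, 4.42% and 3.75% of all genes for Eomes, Il10 and Il13. With the Gzma class in the fit 1 member rose with Eomes (0.804% of all genes higher) and 1 with Il10 (1.51%).

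**Figure D5:**
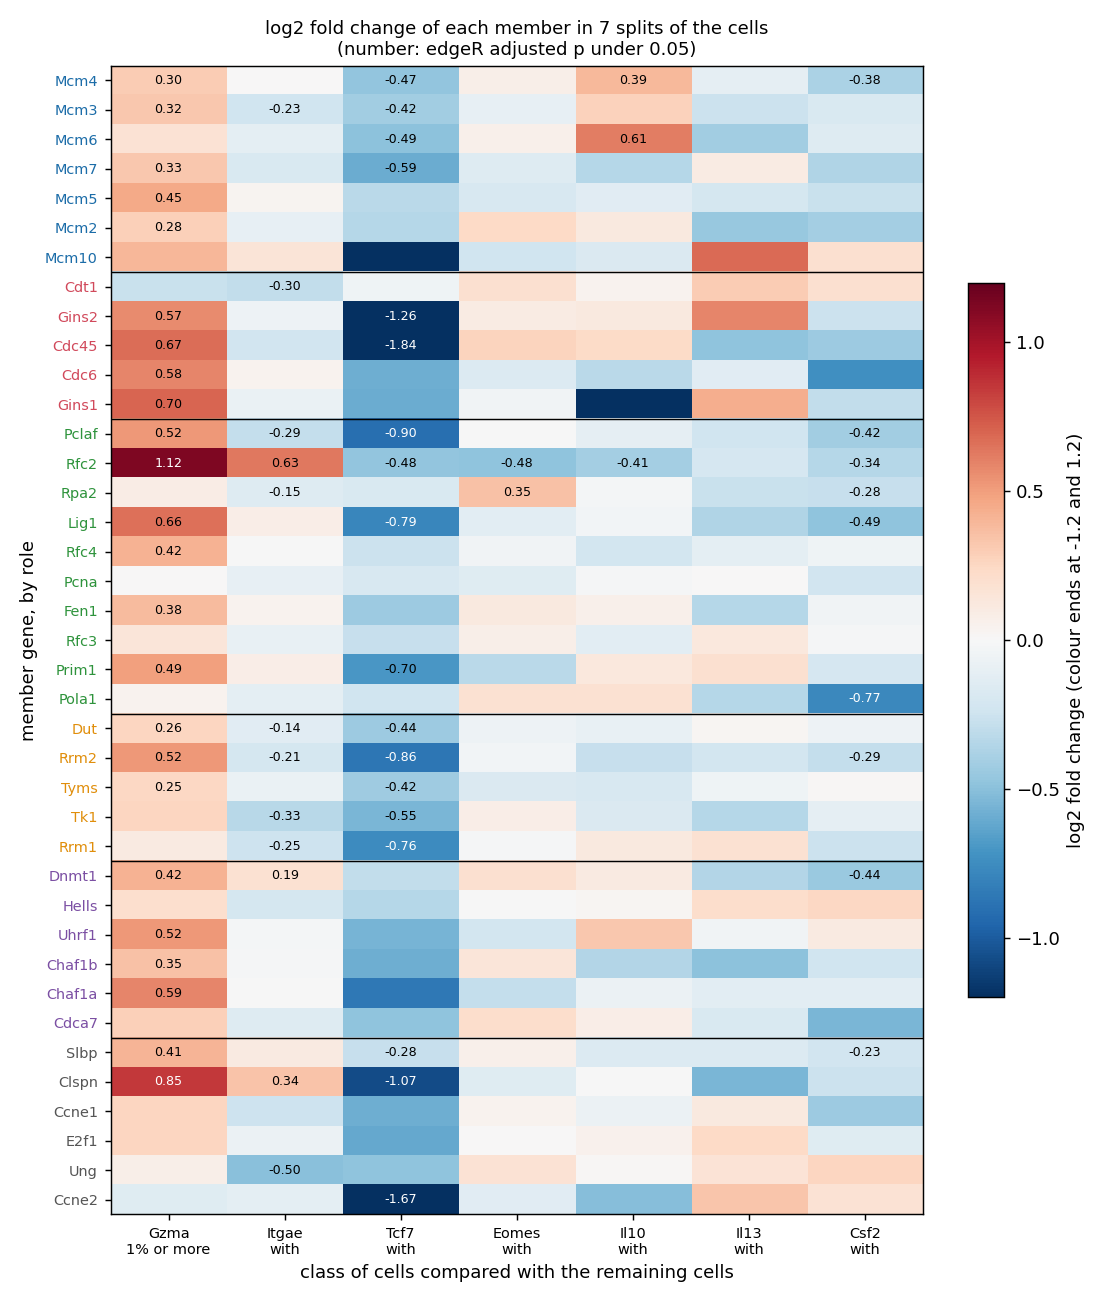
log2 fold change (colour, ends at -1.2 and 1.2) of each member, grouped by role, in each of 7 splits, with the value printed where the edgeR adjusted p was under 0.05. The Gzma column has 24 printed rises, the Tcf7 column 18 falls, and the Rfc2 row has values in 6 of the 7 columns.

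Member-rich cells were last compared with the rest for genes outside the set, with all 39 members left out of the table. The cells were chosen by their cycle genes, so these values describe the cells and are not an independent test. Of 11257 genes 2441 (21.7%) were higher and 2026 (18%) lower in edgeR, and without the shared barcodes 2218 and 1770. All 47 G2/M genes were higher, with a median log2 value of 2.46, as were 54 of 58 other replication genes, led by Exo1, an exonuclease, at 4.43 (SE 0.28). Outside the lists, Esco2, which acetylates cohesin in S phase, was at 105 and 104 CPM in member-rich cells and 8.23 and 6.64 CPM in the rest (log2 3.86, SE 0.13), and Stmn1, the microtubule regulator stathmin, at 1493 and 1553 CPM against 170 and 119 CPM. Within the list of other replication genes 1 was called lower. This was Rrm2b, the subunit of ribonucleotide reductase used outside S phase, at 13.5 and 11.3 CPM against 21.2 and 25.3 CPM (log2 -0.80, SE 0.20). Of 30 G1 and restriction point regulators 19 were higher and 4 lower. The inhibitors of cyclin-dependent kinases among them went both ways. Cdkn2b was lower, with a log2 value of -2.00 (SE 0.44), and so was Cdkn1b at -0.82 (SE 0.11). Cdkn2a was higher at 1.43 (SE 0.10), as were Cdkn2c at 1.33 (SE 0.09), Cdkn2d at 0.61 (SE 0.09) and Cdkn1a at 0.55 (SE 0.12). These last 4 are outside the rule for named genes and were chosen after their values were seen.

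T cell state genes were mostly lower in member-rich cells, with 29 of 38 lower and 4 higher. Tcf7 was at 18.5 and 16.3 CPM against 48.1 and 48.9 CPM (log2 -1.41, SE 0.16), and Ccl4, a chemokine gene, at 1817 and 1730 CPM against 4173 and 4835 CPM (-1.28, SE 0.05). The anti-proliferative gene Btg1 was at 1450 and 1191 CPM against 3512 and 3727 CPM, and Mxd4, an antagonist of Myc, at 71.8 and 51.4 CPM against 154 and 170 CPM. The 4 that were higher were Ccr9, the gut-homing receptor, Gzma, Gzmb and Cd8a, by 0.15 to 0.33, and Gzmb was not higher in replicate 1 by its CPM, at 5302 against 5328. With the Gzma class in the fit Gzmb was lower, at -0.18 (SE 0.06), and Cd8a at -0.15 (SE 0.10) and Ccr9 at 0.06 (SE 0.08) did not pass. Each of the 8 T cell markers was lower, with Cd3g at log2 -0.53 (SE 0.05). The 7 tested erythroid markers were higher, as were 4 of 6 basophil or mast cell markers, and the summed erythroid share was 0.0321% and 0.0900% of UMIs in member-rich cells and 0.0099% and 0.0090% in the rest. Of the 11 cells in each library with at least 1% erythroid markers, 7 and 9 were member-rich. With all cells rich in markers of another type left out, 2481 genes were higher and 2125 lower.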

How the data were processed

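A pair of pooled 10x Genomics expression libraries was analysed. Hashtag libraries and the tissue of each cell were not used here. The authors deposited UMI counts per gene and barcode, made with Cell Ranger 3.1.0 on mm10 per the submitters' processing notes; the strand setting is not given in the sources used here. Cells had at least 1000 UMIs, 500 genes, at most 10% mitochondrial UMIs and 1 UMI of Cd3e, Cd3d or Cd3g. They were thinned to 1500 UMIs (shallower cells left out) and split at 1% Gzma, or by 1 UMI of Itgae, Tcf7, Eomes, Il10, Il13 or Csf2. No doublet caller was run; cells of 2000 to 4000 UMIs served as an alternative.

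Counts were summed per library and class and fitted with edgeR 4.0.16 (quasi-likelihood test, TMM, filterByExpr, library as a block, split gene left out), with Benjamini-Hochberg adjustment over all genes and a threshold of 0.05. Both classes of a pair come from the same library, which is what the block pairs. DESeq2 1.42.0, other normalization, filters, thinning and cell sets were alternatives, and leaving out the shared barcodes was chosen after seeing the data. The fits were first tested on simulated data with known changes. Of 100 genes set to a 1.5-fold change, 91% were called in the Gzma split, 55% in Tcf7 and 37% in Il13. At a 2-fold change 100%, 78% and 75% were called. The changed genes were drawn from those above a minimum count, and members with few UMIs, such as Mcm10 and Gins1, lay below it. The simulation used the same dispersion for every gene and a library effect shared by both classes. These percentages therefore do not cover such members, or class differences that vary more between libraries. A gene that did not pass is therefore not shown to be unchanged.

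Named genes were up to 5 called members in each direction per split, members on which a result turns, and up to 4 called genes per direction of each list. For member-rich cells they were the 10 largest changes each way outside the lists, among genes of at least 50 CPM with the same order in both libraries, of which the text gives 4. The members and lists were chosen with earlier results of these data known. Intervals are exact binomial (Clopper-Pearson) and cover counting error only.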

Additional observations from a re-analysis of the deposited data

How the results depend on the processing

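There were 109 alternatives for the counts of called members and for the genes called in member-rich cells. Of these, 71 were counted as the same: they kept the direction within 1.5 times of the main count, or both counts were 0. Both were 0 in alternatives of the Il13 split and of the interactions, where such a match shows no direction. Of the others, 9 gave more calls, 24 gave fewer and 5 reversed the direction. Normalization by RLE counted as the same in each split. The cause of the changes was not tested. Shares of all genes called are given above only for DESeq2 and for the Gzma term. The counts of called members in the other alternatives have no such background beside them. With DESeq2 the called members were 6 for Gzma (24 in edgeR), 2 for Itgae (12), 4 for Tcf7 (18), 0 for Eomes (2), 0 for Il10 (3) and 1 for Csf2 (9). Without the replicate block, which pairs the classes by library, they were 11 for Gzma, 1 for Itgae (a rise), 2 for Tcf7, 1 for Eomes, 0 for Il10 and 0 for Csf2. Without thinning they were 31 for Itgae, 27 for Eomes, 8 for Il10, 5 for Il13 (0 in the main fit) and 10 for the Gzma by Itgae interaction (0). Thinned to 1000 UMIs they were 3 for Itgae (2 rose), 8 for Tcf7, 1 for Eomes, 0 for Il10 and 4 for Csf2. A second random thinning gave 5 for Itgae (3 rose) and 1 for Il13. In cells of 2000 to 4000 UMIs they were 8 for Gzma, 3 for Tcf7, 1 for Il13, 1 for Csf2 (a rise) and 1 for the Gzma by Itgae interaction. With the Gzma class in the fit they were 5 for Itgae, 8 for Tcf7, 1 for Eomes, 1 for Il10 and 0 for Csf2. Without the low-count filter 1 member passed the Gzma by Tcf7 interaction. The 4467 genes called in member-rich cells became 2084 with DESeq2, 8117 without thinning and 932 in cells of 2000 to 4000 UMIs.

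Some directions changed. Without thinning the median log2 value of the members was 0.30 for Itgae (-0.09 thinned) and 0.31 for Il10 (-0.02), and for Itgae the values were 0.29 for Mcm3, 0.25 for Dut, 0.10 for Rpa2, 0.066 for Ung, 0.10 for Rrm1, 0.44 for Pclaf, 0.19 for Tk1 and 0.33 for Rrm2. A second thinning gave 0.015 for Rpa2 with Itgae, and the Gzma term gave -0.11 for Clspn and -0.040 for Dnmt1 with Itgae, and -0.18 for Gzmb and -0.15 for Cd8a in member-rich cells. In cells of 2000 to 4000 UMIs, the Csf2 median was 0.0017 and Lig1, Pclaf and Rrm2 were at 0.15, 0.14 and 0.11 with Csf2, and Mcm2 at -0.022 with Gzma. Leaving out a library leaves no test: the member medians were then 0.25 and 0.45 for Gzma, -0.58 and -0.45 for Tcf7, -0.17 and -0.07 for Itgae, -0.34 and -0.14 for Csf2, -0.11 and -0.01 for Eomes, -0.07 and -0.07 for Il10, and -0.24 and -0.05 for Il13. The Gzma by Tcf7 interaction was not run in cells of 2000 to 4000 UMIs, where a class held under 50 cells. Depth limits genes with few UMIs, such as Cdc45 and Ccne2 in cells with Tcf7.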
